A study of Homo sapiens with 2 samples.

Results

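The kallikreins KLK5, KLK6, KLK7, KLK8, KLK10 and KLK11 and the Kunitz-type inhibitors SPINT1 and SPINT2 were followed as 8 genes of the 58698 listed in a deposited RNA-seq table. They were picked by symbol from that table, with its values in view, so the differences below describe the 8 genes and test nothing. The cells were MIA PaCa-2, an established pancreatic cancer cell line. There were 2 cultures: sgGFP, the control, labelled WT in genotype and carrying a guide against GFP, a gene that human cells lack, and sgTPST2, labelled as a TPST2 knockdown and carrying a guide against TPST2, a Golgi enzyme that sulfates tyrosines of secreted and membrane proteins. Each culture gave 1 library, so no difference can be set against a spread between replicates, and a difference between these cultures cannot be told apart from an effect of the guide. The sources used here do not say whether each culture was a clone or a pool.

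Tissue kallikreins are secreted serine proteases made as inactive precursors. Their genes stand side by side in a single cluster on chromosome 19, and in epithelia such as the epidermis they activate each other and cut adhesion proteins of desmosomes. SPINT1 and SPINT2 encode HAI-1 and HAI-2, membrane-anchored inhibitors that block the cell-surface proteases matriptase, prostasin and hepsin and the activator of hepatocyte growth factor by means of Kunitz domains.

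Values are FPKM, a fragment count divided by transcript length and by library size, so they are already per length and can be set side by side between genes. From the steps in low values, a level of 1 FPKM corresponded to roughly 42.3 fragments for each kb in the sgGFP library and 48.2 in the sgTPST2 library, and fragments per gene were worked out for the median length of its annotated coding transcripts. The 95% exact Poisson intervals below rest on these fragments and cover counting error only. TPST2 was at 8.46 FPKM in sgGFP and at 1.92 FPKM in sgTPST2, a ratio of 4.42 (95% interval 3.73 to 5.24), lower in the culture with its guide, and has q = 0.245 in the authors' deposited table. The authors' test had the same 1 library per group, so its p and q values, here and below, hold no spread between replicate cultures. Of the markers of the labelled cell type, the keratins KRT8, KRT18 and KRT19 were abundant, while the epithelial adhesion gene EPCAM was listed at 0 in both libraries and E-cadherin (CDH1) at 0 and 0.052 FPKM. The libraries also differed in a chromosome arm: 102 protein-coding genes of the short arm of chromosome 12 had a median log2 difference of -0.88. None of the 8 genes lies there, and the medians were 0.03 over 584 genes of chromosome 19 and -0.03 over 254 genes of chromosome 15, the chromosomes of the members. These medians and that of the short arm are over protein-coding genes tested by the authors with a mean of at least 5 FPKM. Low genes such as KLK5, KLK7 and KLK8 are not among them.

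SPINT2 was the most abundant of the 8 genes in the control and was much lower in sgTPST2. SPINT2 (ENSG00000167642.12, plus strand of chromosome 19, 38244035 to 38292614, GRCh38) stood at 30.5 FPKM in sgGFP (95% Poisson interval 29.01 to 32.1) and at 1.44 FPKM in sgTPST2 (1.13 to 1.78). About 1519 and 81 fragments lie behind these levels. The intervals are far apart, and the control level was 21.3 times that of sgTPST2 (95% interval 17.1 to 27.1). On the scale log2(FPKM + 1), used for all differences below, the difference was -3.69, the ninth lowest among 11048 protein-coding genes that reached 1 FPKM in either library. In the authors' deposited table SPINT2 has p = 0.0248 and q = 0.99965, so the authors' test did not call it at q under 0.05.

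SPINT1, the close relative of SPINT2, was listed at 0 in both libraries. It lies on the plus strand of chromosome 15 (ENSG00000166145.14, 40844018 to 40858207). For its transcript length, 3 fragments would have read as 0.0277 FPKM in sgGFP and 0.0243 FPKM in sgTPST2, so a level above about these values was not seen. The antisense gene SPINT1-AS1 beside it was listed at 0 as well.

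KLK6, a secreted trypsin-like protease, held most of the kallikrein RNA. KLK6 (ENSG00000167755.14, minus strand of chromosome 19, 50958631 to 50969673) stood at 23.3 FPKM in sgGFP (22.1 to 24.6) and at 0.686 FPKM in sgTPST2 (0.495 to 0.921), from about 1286 and 43 fragments. The control level was 34.0 times the other (95% interval 25.2 to 47.3), and the log2 difference of -3.85 was the seventh lowest of the 11048 genes. With the shortest annotated coding transcript of KLK6 as its length, the interval of the ratio was 21.8 to 53.5. In the authors' deposited table KLK6 has p = 5e-05 and q = 0.0126. It is the 1 member of the 8 that passes q under 0.05 there, where 0.425% of 18574 tested genes passed in the lower direction and 0.0915% in the higher.

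The 3 kallikreins next to KLK6 on the chromosome were low in the control and close to 0 in sgTPST2. KLK8 (neuropsin, a trypsin-like protease) stood at 2.40 FPKM (1.79 to 3.14) and 0.112 FPKM (0.0250 to 0.354), a ratio of 21.4 (95% interval 6.40 to 98.9). KLK7, a chymotrypsin-like protease that cuts corneodesmosin in the epidermis, stood at 1.85 FPKM (1.53 to 2.20) and 0.0723 FPKM (0.0215 to 0.155), a ratio of 25.55 (11.6 to 87.2). With the shortest annotated coding transcript of KLK7 as its length, the interval of the ratio was 8.47 to 128. KLK5, a trypsin-like protease that activates KLK7, stood at 1.54 FPKM (1.22 to 1.92) in sgGFP and was listed at 0 in sgTPST2, so no ratio is given. All 3 were higher in sgGFP. The sgTPST2 levels rest on about 3 fragments for KLK8, 5 for KLK7 and 0 for KLK5. KLK8 has 6 annotated coding transcripts of 267 to 1324 bp, so its fragments could be 8 to 115 in sgGFP and 0 to 6 in sgTPST2, and its interval is the least certain. In the authors' deposited table KLK8 has q = 0.657, and KLK5 and KLK7 have q = 0.99965.

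KLK10 was low in both libraries, and KLK11 was near their limit. KLK10, which has little protease activity of its own, stood at 0.338 FPKM (0.240 to 0.458) in sgGFP and 0.168 FPKM (0.107 to 0.254) in sgTPST2, and these intervals overlap slightly. About 40 and 23 fragments lie behind these KLK10 levels. For its length, 3 fragments would have read as 0.0252 FPKM in sgGFP and 0.0221 FPKM in sgTPST2. The ratio was 2.02 (95% interval 1.16 to 3.47), and with the shortest annotated coding transcript of KLK10 as its length the interval was 0.890 to 4.58, which includes no difference. With either length it lies below the intervals of KLK6, KLK7 and SPINT2 given above. It also lies below that of KLK8 at its median length, but with its shortest transcript KLK8 has no fragment in sgTPST2 and no such interval. KLK11, a trypsin-like protease, was at 0.0175 FPKM in sgGFP, which is about 1 fragment, and was listed at 0 in sgTPST2, so no difference was detectable at this depth.

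**Figure D1:**
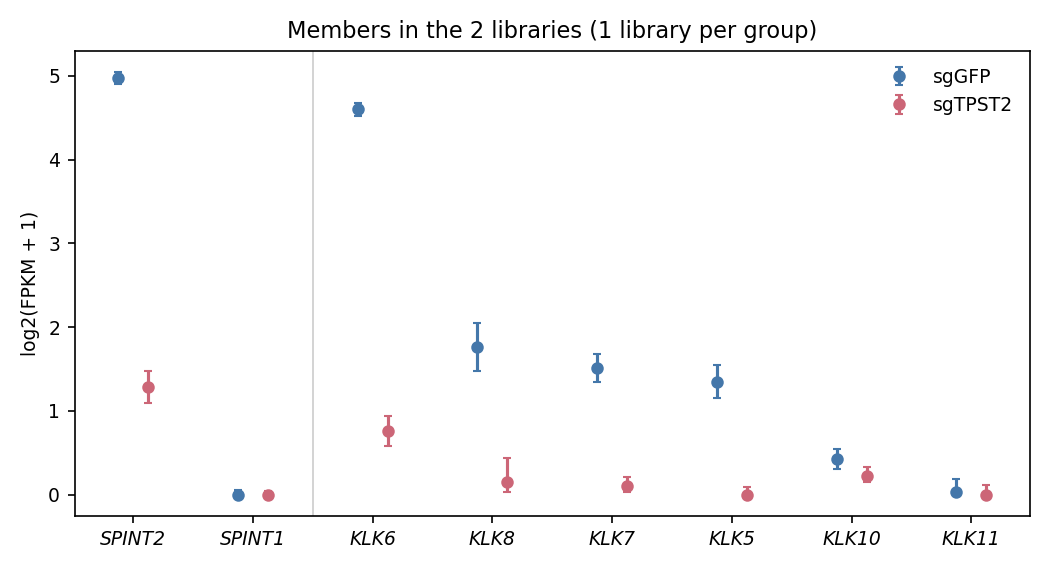
Level of each of the 8 genes, as log2(FPKM + 1), in sgGFP (blue) and sgTPST2 (red), with bars for the 95% exact Poisson interval of counting error; each point is 1 library. SPINT2 and KLK6 stand at 30.5 and 23.3 FPKM in sgGFP and at 1.44 and 0.686 FPKM in sgTPST2, KLK8, KLK7 and KLK5 sit between 1.54 and 2.40 FPKM in the control only, and SPINT1 is at 0 in both.

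Below SPINT2 and KLK6 the order of levels was not the same in the libraries. In the control it ran SPINT2, KLK6, KLK8, KLK7, KLK5, KLK10 and KLK11, and the intervals of KLK8, KLK7 and KLK5 overlapped each other while those of SPINT2, KLK6 and KLK10 overlapped none of the others. In sgTPST2 it ran SPINT2, KLK6, KLK10, KLK8 and KLK7, with KLK5, KLK11 and SPINT1 at 0, and the intervals of KLK10, KLK8 and KLK7 overlapped, so their order there does not differ beyond counting error. KLK6 made up 79.2% of the summed FPKM of all 15 kallikrein genes in sgGFP, where the sum was 29.4 FPKM, and 66.1% in sgTPST2, where it was 1.04 FPKM. Of the 15 genes, 4 reached 1 FPKM in sgGFP and 0 did in sgTPST2.

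The 4 kallikreins with more than 1 FPKM were neighbours. KLK5, KLK6, KLK7 and KLK8 follow each other on the minus strand within 59.4 kb of chromosome 19 (50943303 to 51002711), and KLK9, the next gene on that strand, was listed at 0 in both libraries, as were KLK1, KLK2, KLK3, KLK4, KLK12, KLK13, KLK14 and KLK15. The family was thus split between 6 genes with any signal, KLK5 to KLK8 with KLK10 and KLK11, and 9 listed at 0 on either side of and between them. On log2(FPKM + 1), 4 of the 15 were at least 2-fold lower in sgTPST2 and 0 were higher. With no filter on low values, 0.67% of all listed genes were 2-fold lower. These 4 kallikreins were the only ones of the 15 to pass the filter of 1 FPKM, and they passed it through the control alone. Over all 13420 genes past that filter 2.93% were 2-fold lower and 1.61% higher. Among the 3670 genes with a control level from 1 to 5 FPKM, where KLK5, KLK7 and KLK8 lie, 4.14% were 2-fold lower. The authors' table gives KLK5 to KLK9 a single locus with 9 genes, so their values were estimated in the same stretch. The other 5 genes of that locus, which include KLK9, a read-through gene over KLK8 and KLK9 and antisense genes, were listed at 0 in both libraries.

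The expressed genes flanking the cluster stood at like levels in the libraries. Before the cluster, C19orf48 stood at 122.8 FPKM in sgGFP and 133.0 FPKM in sgTPST2, ACP4 was at 0.204 and 0.179 FPKM, and AC010325.1 was at 0.253 FPKM in sgGFP and listed at 0 in sgTPST2. After it, CTU1, a tRNA-modifying enzyme gene, stood at 1.37 and 1.62 FPKM, and SIGLEC9 and SIGLEC7 were listed at 0. Over the 76 protein-coding genes at 1 FPKM or more within 2 Mb of the cluster the median log2 difference was 0.13, with 0 genes 2-fold lower and 1, EMC10, 2-fold higher. The lowest of them was at -0.75, against -1.34 to -3.85 for KLK5 to KLK8.

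**Figure D2:**
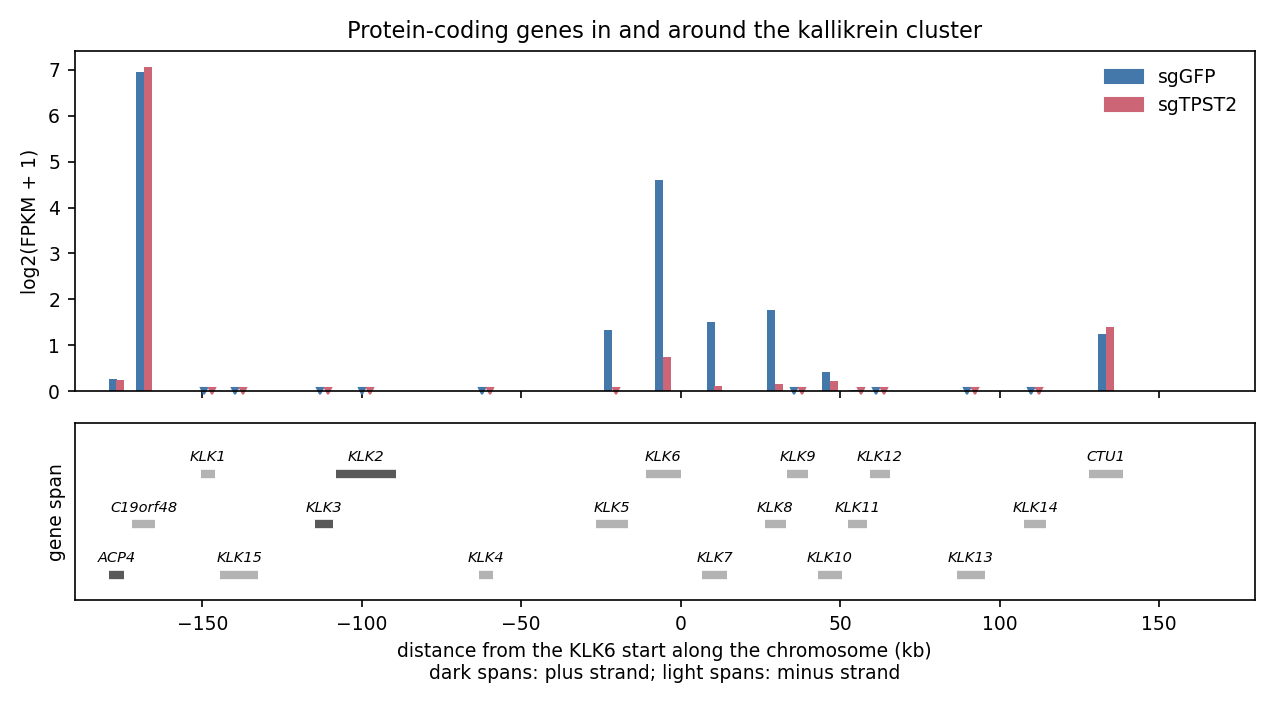
Level as log2(FPKM + 1) in sgGFP (blue) and sgTPST2 (red) of protein-coding genes in and around the kallikrein cluster, drawn at each gene's midpoint by distance from the KLK6 start in kb, with gene spans and strands below; triangles mark values listed at 0. Genes with symbols of AC and digits are not drawn, among them AC010325.1 (0.253 FPKM in sgGFP and 0 in sgTPST2). Blue bars without a red bar of like height stand over KLK5, KLK6, KLK7 and KLK8, while C19orf48 and CTU1 on either side have bars of like height. KLK10 has short bars of unlike height (0.338 and 0.168 FPKM).

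SPINT2 lies on the same chromosome outside the cluster, and 2 genes next to it were lower as well. PPP1R14A, an inhibitor of myosin phosphatase whose gene lies inside the SPINT2 span on the opposite strand, stood at 3.17 FPKM (2.42 to 4.09) in sgGFP and 0.919 FPKM (0.567 to 1.43) in sgTPST2, a ratio of 3.45. C19orf33, the next gene on the SPINT2 strand, stood at 184 FPKM (176 to 191) and 101 FPKM (95.6 to 106), a ratio of 1.83. In the authors' deposited table both have q = 0.99965. The sources used here do not state whether counting used strand, and a read-through gene joins SPINT2 to C19orf33 in the annotation, so reads of these genes could have been shared, which was not tested. Farther out, YIF1B stood at 40.6 and 36.9 FPKM, DPF1 at 2.18 and 2.95 FPKM and SIPA1L3 at 4.71 and 4.60 FPKM. Beyond YIF1B, KCNK6 stood at 1.34 and 0.730 FPKM and CATSPERG at 1.10 and 0.516 FPKM. Over the 65 genes within 2 Mb the median was 0.01, and PPP1R14A was the 1 gene that was 2-fold lower on log2(FPKM + 1). Around SPINT1 the median was -0.06 over 44 genes, of which 1, CCDC9B, was 2-fold lower. Its expressed neighbours ZFYVE19 and VPS18 stood at 12.4 and 14.9 FPKM and at 6.94 and 7.65 FPKM, while PPP1R14D was listed at 0 and RHOV was at 0.515 and 0.233 FPKM.

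**Figure D3:**
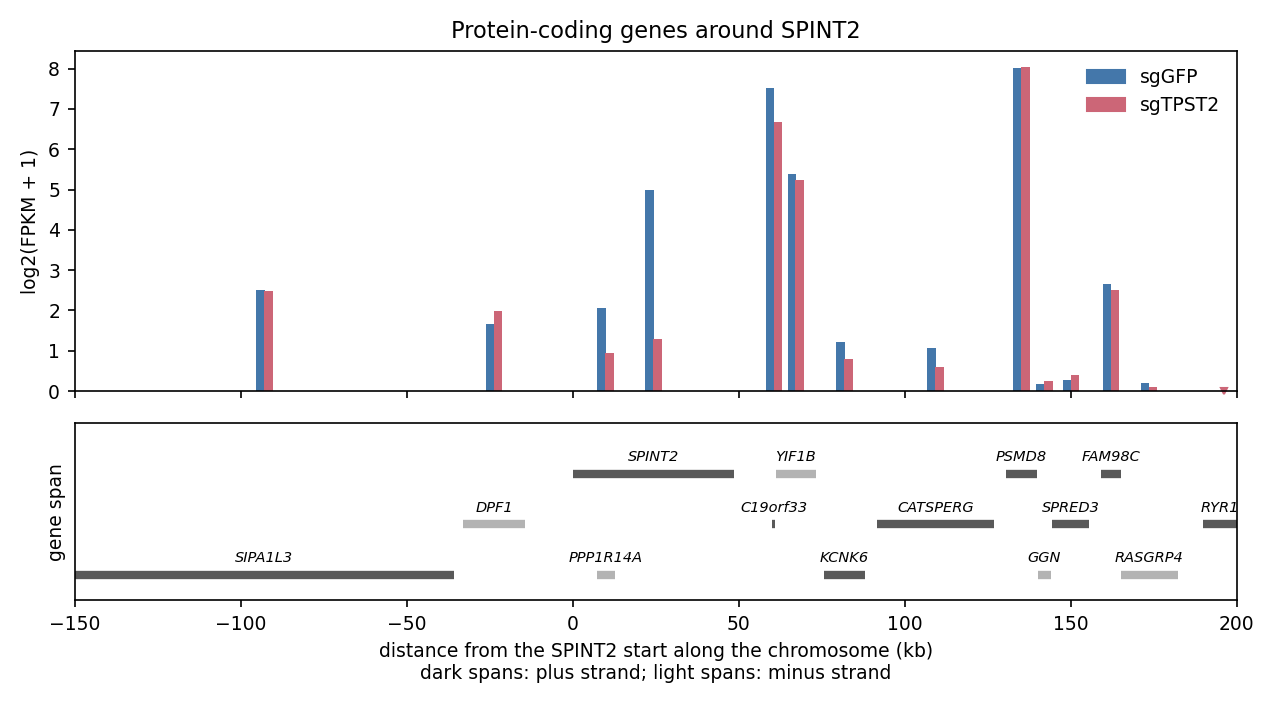
Level as log2(FPKM + 1) in sgGFP (blue) and sgTPST2 (red) of protein-coding genes around SPINT2, drawn at the midpoint of the part of each gene inside the plot, by distance from the SPINT2 start in kb, with gene spans and strands below. AC011479.1, listed at 0 in both libraries, is not drawn. SPINT2 has the widest gap (30.5 and 1.44 FPKM), PPP1R14A and C19orf33 beside it have smaller gaps, and YIF1B and SIPA1L3 have bars of like height.

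The bases before the starts of KLK5, KLK6 and KLK7 are shown because these 3 genes were lower together. They are RefSeq sequence (GRCh38.p14, minus strand, written 5′ to 3′), and each ends just before the outermost annotated start of its gene, at chr19:50953094-50953288, chr19:50969674-50969841 and chr19:50984100-50984314. Capitals mark CAGGTG, an E-box core that repressors of the Snail and ZEB families bind, and GGGCGG, the GC box of SP factors, each on either strand (CACCTG and CCGCCC).
KLK5: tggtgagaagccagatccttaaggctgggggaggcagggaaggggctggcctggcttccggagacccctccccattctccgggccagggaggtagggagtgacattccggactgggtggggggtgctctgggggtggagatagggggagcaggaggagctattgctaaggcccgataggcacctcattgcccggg
KLK6: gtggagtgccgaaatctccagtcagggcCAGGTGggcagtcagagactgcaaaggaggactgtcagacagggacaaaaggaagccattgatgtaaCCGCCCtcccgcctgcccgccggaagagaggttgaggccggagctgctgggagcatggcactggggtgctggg
KLK7: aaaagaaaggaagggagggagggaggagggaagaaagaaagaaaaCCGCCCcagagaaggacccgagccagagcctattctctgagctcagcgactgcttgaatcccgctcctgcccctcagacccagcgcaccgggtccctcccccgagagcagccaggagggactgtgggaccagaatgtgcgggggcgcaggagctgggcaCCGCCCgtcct
KLK6 held 1 CAGGTG, which begins 140 bases before the end of its stretch, and 1 GC box, KLK7 held 2 GC boxes and no CAGGTG in the stretch shown, and KLK5 held neither motif. Of the 8 genes, 6 had a promoter in the RefSeq table and KLK8 and SPINT2 did not. Over the full 250 bases before each listed start, CAGGTG was found in 4 of these 6 genes (KLK6, KLK7, KLK11 and SPINT1), and in 20.6% of 27305 genes. By window, it was found in 4 of the 11 windows of the members and in 17.5% of 35116 windows. GGGCGG was found in the same 4 genes and in 46.2% of all genes. Of these 4 genes, SPINT1 was listed at 0 in both libraries and KLK11 rested on about 1 fragment, so no difference could be seen in them. KLK5, which was listed at 0 in sgTPST2, and KLK10 held neither motif in these windows. Of the Snail and ZEB genes, SNAI2 stood at 0.211 FPKM in sgGFP and 21.7 FPKM in sgTPST2, with q = 0.0964 in the authors' deposited table. SNAI1 stood at 1.83 and 0.832 FPKM, ZEB1 at 13.2 and 13.9 FPKM, and ZEB2 was listed at 0 and at 0.027 FPKM. Their part in the levels of the members was not tested.

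Of the genes for other inhibitors, SERPINA3 had the widest difference. Among 15 genes for serpins, SPINK proteins and A2M that inhibit kallikreins or related proteases, 2 reached 1 FPKM, 1 of them was 2-fold lower and 0 were higher. That was SERPINA3 (alpha-1-antichymotrypsin), at 110.5 and 1.31 FPKM, while SERPINB6 stood at 184.9 and 97.0 FPKM. SPINK5, which encodes the epidermal inhibitor of KLK5 and KLK7 and was named after its values were seen, stood at 0.657 FPKM (0.531 to 0.806) in sgGFP and was listed at 0 in sgTPST2, with q = 0.0126 in the authors' deposited table. The other SPINK genes of the list were at 0 or under 0.1 FPKM. KLK5, KLK7 and SPINK5 each had a low control level and a level at or near 0 in sgTPST2.

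Other proteins with a Kunitz domain did not share the low level of SPINT2 in sgTPST2. Of 14 such genes 5 reached 1 FPKM, with 0 at least 2-fold lower or higher and a median of -0.20, where all genes past the filter had a median of 0.00. The coagulation inhibitor TFPI stood at 146.5 FPKM in sgGFP and 192 FPKM in sgTPST2. The amyloid precursor APP stood at 169 and 126 FPKM, its relative APLP2 at 110.9 and 96.4 FPKM, and the collagen chain COL6A3 at 9.51 and 5.47 FPKM. SPINT3 and SPINT4 were listed at 0. Of 13 further protease inhibitors of epithelia 4 reached 1 FPKM and 0 were 2-fold apart (median -0.34), with SERPINB9 at 26.2 and 15.2 FPKM, SERPINB8 at 25.65 and 16.8 FPKM, SERPINB1 at 26.7 and 24.8 FPKM and the cathepsin inhibitor CSTB at 20.3 and 21.9 FPKM.

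Of the proteases named above as targets of SPINT1 and SPINT2, matriptase, prostasin and hepsin were nearly absent from both libraries. Matriptase (ST14) was at 0.007 FPKM in sgGFP and listed at 0 in sgTPST2, prostasin (PRSS8) was listed at 0 and at 0.058 FPKM, and hepsin (HPN) was listed at 0 in both. HGFAC, the activator of hepatocyte growth factor, stood at 0.236 and 0.559 FPKM. Of 12 cell-surface serine proteases and related enzymes, only the urokinase gene PLAU reached 1 FPKM, at 106.7 and 90.0 FPKM.

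Of 12 receptors and substrates of these proteases and related genes, 6 reached 1 FPKM. The thrombin receptor F2R stood at 171 and 170.1 FPKM, the protease-activated receptor F2RL1, which trypsin-like proteases cleave, at 17.3 and 19.9 FPKM, and the hepatocyte growth factor receptor MET at 10.4 and 8.43 FPKM. SCNN1A, the alpha subunit of the epithelial sodium channel that prostasin activates, stood at 15.4 and 5.08 FPKM, a log2 difference of -1.43. It was the 1 gene 2-fold lower among these 6, and 0 were higher (median -0.04). EPCAM and SCNN1G were listed at 0 in both libraries, and F2RL3, HGF, SCNN1B and MST1R were under 0.2 FPKM.

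Regulators and markers of epithelial cells were lower in part beside the members. Of 17 epithelial transcription factors, splicing factors and their repressors, 8 reached 1 FPKM, 2 were 2-fold lower and 1, SNAI2, was higher (median -0.51). The ETS factor EHF stood at 68.3 and 33.1 FPKM, KLF4 at 8.46 and 3.01 FPKM and ELF3 at 12.1 and 8.95 FPKM. GRHL2, an activator of epithelial genes, was listed at 0 in both. The keratins KRT8, KRT18 and KRT19 stood at 509.9, 583 and 189 FPKM in sgGFP and 41.6, 85.3 and 12.8 FPKM in sgTPST2. Markers of cornifying keratinocytes, the cells in which KLK5 and KLK7 are best known, stayed at 0 or under 0.1 FPKM in 5 of 6 genes, the exception being KRT10 at 32.1 and 35.6 FPKM.

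Some markers of non-epithelial cells were present at levels like those of the members. The 5 leukocyte markers summed to 6.17 FPKM in sgGFP and 3.28 FPKM in sgTPST2, carried by CD68 (3.32 and 1.51 FPKM) and CD14 (2.67 and 1.76 FPKM), with CD3E at 0 in both. The 3 endothelial markers summed to 3.10 and 0.282 FPKM, carried by CDH5 at 2.93 and 0.277 FPKM, the 1 gene of these lists that was 2-fold lower, with PECAM1 at 0 in both. The 5 fibroblast markers summed to 18.6 and 12.1 FPKM, nearly all of it COL3A1 at 18.5 and 11.9 FPKM, with DCN and LUM at 0. The remaining fibroblast markers were near 0 and went the other way, COL1A1 at 0.045 and 0.216 FPKM and PDGFRB at 0 and 0.0038 FPKM. The 4 acinar markers were listed at 0. The lower sums in sgTPST2 go the same way as the members, and their part in the members' differences was not tested. In bulk RNA, fewer cells that express a gene and less RNA per cell cannot be told apart.

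**Figure D4:**
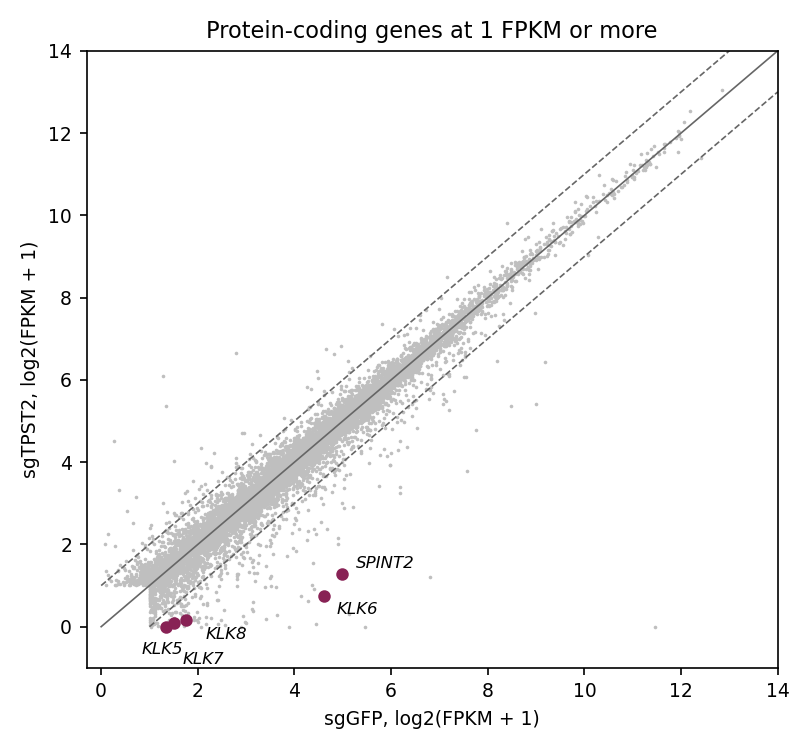
Protein-coding genes at 1 FPKM or more in either library (grey points), by log2(FPKM + 1) in sgGFP and in sgTPST2, with the line of equal values (solid) and 2-fold lines (dashed); the 5 members past the filter are in purple. SPINT2 and KLK6 lie far below the lower dashed line with few genes near them, and KLK5, KLK7 and KLK8 lie near the bottom edge.

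With the 8 members left out, the genes nearest to KLK6 and SPINT2 in their pair of levels came from chromosomes other than 19. Nearness was the Euclidean distance between the 2 values on log2(FPKM + 1), over 2 libraries. For KLK6 the 5 nearest protein-coding genes outside the members were KRT15 (20.02 and 0.884 FPKM, distance 0.264), CALB2 (19.55 and 1.005 FPKM), NR5A2 (18.3 and 0.538 FPKM), C15orf48 (16.5 and 0.665 FPKM) and DDIT4L (34.0 and 0.244 FPKM). For SPINT2 they were JAG1 (19.8 and 1.95 FPKM, distance 0.661), CALB2, KRT15, NR2F1 (29.1 and 3.05 FPKM) and COL1A2 (29.05 and 3.47 FPKM). KRT15 and CALB2 were in both groups of neighbours. KLK6 and SPINT2 themselves were 0.650 apart, nearer than JAG1 to SPINT2.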

How the data were processed

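Total RNA of 2 cultures of MIA PaCa-2 cells, 1 library each, was analysed. Per the submitters' processing notes the authors used STAR and Cuffdiff with the build hg38 (versions, annotation and strand setting: not given in the sources used here). For each gene and library 1 value was deposited by the authors, which has no unit in the header and was read as FPKM as made by Cuffdiff, with the authors' scaling between libraries kept. Per the file headers the table also holds the authors' p-value, q-value, log2 fold change and test statistic (a score not used here). The deposited log2 fold change equals log2((sgTPST2 + 1)/(sgGFP + 1)) to within 2.1e-15.

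The members and gene lists were chosen with earlier results of these data known. Differences use that scale, with a pseudocount of 1, over genes whose higher value was at least 1 FPKM. With 1 sample per group no test was made. Coordinates come from GENCODE release 29 (GRCh38), which matched all 58698 identifiers. For repeated symbols the more abundant entry was taken. Depth was read from low values of genes with a single transcript over 1500 bp: in sgGFP 91.0% of 930 such values, and in sgTPST2 92.0% of 877, came within 0.1 of whole fragments, with the step and a length offset of 190 bp fitted on the same values. On values simulated for 5081 such genes by the fitted formula, with no error added to the values, the fit returned both planted steps. This checks the fitting step only. It does not check the fragments of the members, which have more than 1 coding transcript each. Intervals at 95% (exact Poisson for levels, exact conditional binomial for ratios, Python 3.11.15 with scipy 1.17.1) cover counting error only.

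Named are every member and kallikrein gene, TPST2, up to 4 genes per list with the largest absolute difference at 5 FPKM or more, the 3 nearest protein-coding genes on each side of the cluster and the 2 nearest beside SPINT1 and SPINT2, and the 5 genes nearest in level to KLK6 and SPINT2. Genes named beyond this rule, among them list members near 0, genes overlapping or near a member, and SPINK5, were chosen after their values were seen. A listed gene is not reported here. Pseudocounts, scalings, filters and window sizes were varied.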

Additional observations from a re-analysis of the deposited data

How the results depend on the processing

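No paired analysis was possible because the design has 1 library per group, which also means that no library could be left out. Of 73 alternative values, 55 stayed within their bounds and 18 moved, none with a change of sign. The bounds were a fixed fold band for counts and shares and the counting intervals for members. For medians they were 1 standard deviation of single-gene differences, which is wide for a median. The libraries already had close sums (1010078 in sgGFP and 1000942 in sgTPST2) and a median difference of -0.0002. Scaling to the same sum or the same upper quartile, or centring on the median gene, could thus change little and moved nothing past its bounds. The medians around the cluster, SPINT1 and SPINT2 stayed within theirs with windows of 1 and 5 Mb, a pseudocount of 0.1 and a filter of 5 FPKM, the alternatives run for them. The size of a log2 difference depends on the pseudocount, by construction of the scale for low values. With 0.1 it was -4.03 for KLK5, -4.90 for KLK6, -3.50 for KLK7, -3.56 for KLK8, -0.71 for KLK10, -0.23 for KLK11 and -4.32 for SPINT2. With 0.01 it was -7.27 for KLK5, -5.07 for KLK6, -4.50 for KLK7, -4.30 for KLK8, -0.97 for KLK10, -1.46 for KLK11 and -4.40 for SPINT2. The values of KLK5 and KLK11 against a library listed at 0 are set by the pseudocount. The share of all genes 2-fold lower was 4.85% with 0.1, 5.15% with 0.01 and 0.67% with no filter on low values. With a filter of 5 FPKM, 1 kallikrein, KLK6, was left and counted as 2-fold lower. Depth limits what can be said of KLK8, KLK10 and KLK11, and of the genes listed at 0.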
